A study of Homo sapiens with 6 samples.

Results

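The genes described here are members of the WNT pathway that act at the cell surface, in the cytoplasm or in the nucleus: 16 WNT ligands, 9 frizzled (FZD) receptors, 4 co-receptors, 9 secreted or membrane antagonists, 4 genes of receptor turnover and R-spondin binding, 4 cytoplasmic antagonists and the 4 TCF/LEF factors. They were chosen by gene symbol, with earlier results of these data known, and number 50 of the 20824 genes in the table. The measurements are RNA-Seq of 21NT cells, a human breast cancer line that models ductal carcinoma in situ, and address which transcripts change when the T-box transcription factor TBX3 is overexpressed. The 3 lines carried an empty pcDNA3.1 vector (EV), TBX3iso1 or TBX3iso2 in the same vector, TBX3iso1 and TBX3iso2 being splice isoforms of TBX3. All 3 lines grew in medium with insulin, EGF, hydrocortisone, serum and the selection agent G418. There were 2 libraries for each line. Resistant cells were pooled for each line, which makes its libraries replicates of 1 transfection, and since no source states that they came from separate cultures, the p-values may measure technical spread alone.

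WNT ligands are secreted lipid-modified proteins that bind FZD receptors. With the co-receptors LRP5 or LRP6 they stabilise beta-catenin, which then works with TCF/LEF factors at target genes, and with the co-receptors ROR1 or ROR2 they act without beta-catenin. DKK proteins block LRP5 and LRP6, SFRP proteins bind WNT ligands in the medium, RNF43 and ZNRF3 remove FZD receptors from the membrane unless R-spondins and LGR receptors restrain them, and AXIN and NKD proteins act in the cytoplasm. In the mammary gland the pathway takes part in duct branching and in the maintenance of basal progenitor cells.

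The libraries held between 43176600 and 54512400 alignments, and values are RPKM, reads scaled by transcript length and by the alignments of the library, so that levels can be set side by side between genes. *TBX3* served as a check of the labels and was at 8.52 and 8.24 RPKM with EV, 13.1 and 11.4 RPKM with TBX3iso1, and 17.5 and 15.5 RPKM with TBX3iso2, with no overlap between lines. Its log2 fold change against EV was 0.54 with TBX3iso1, under the fold threshold used here, and 0.97 with TBX3iso2. Of 10 epithelial and mammary carcinoma markers, 9 averaged 0.5 RPKM or more, and their summed level was 2943 and 2852 RPKM with EV and between 2166 and 2654 RPKM with the isoforms. Fibroblast markers, of which 1 of 7 (*COL1A1*) was at 0.5 RPKM or more, summed to 4.60 and 4.86 RPKM with EV and to between 7.16 and 8.72 RPKM with the isoforms. Both sums thus set EV apart from the isoform libraries without overlap, but the epithelial markers did not move together. *KRT19*, *CDH1*, *ERBB2* and *MUC1* were below EV under either isoform, at log2 fold changes from -0.51 to -1.84. Of these falls, those of *KRT19* and *ERBB2* with TBX3iso1 and of *CDH1* with TBX3iso2 were under the fold threshold. *KRT5* was above EV under either, at 1.20 and 1.25. *KRT8* and *EPCAM* were lower with TBX3iso1, at -0.24 and -0.11, under the fold threshold. *EPCAM*, *KRT17* and *KRT18* were higher with TBX3iso2, at 0.26, 0.55 and 0.30, under the fold threshold. Immune markers summed to between 36.2 and 54.8 RPKM, with 2 of 4 at 0.5 RPKM or more (*CD14* and *CD68*), and were highest with EV. Endothelial markers summed to 7.37 and 7.73 RPKM with EV and to between 1.26 and 1.46 RPKM with the isoforms, and *PECAM1* was the 1 of 4 at 0.5 RPKM or more. The part of these markers in the results below was not tested. Every library came from a cultured cell line. The other immune markers had no library above 0.0102 RPKM (*PTPRC*) and 0.0299 RPKM (*CD3E*). The other endothelial markers had none above 0.0179 RPKM (*VWF*), 0.083 RPKM (*CDH5*) and 0.187 RPKM (*KDR*). In bulk RNA of a line, fewer cells that express a marker and less RNA per cell cannot be told apart.

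With TBX3iso1, the ligands *WNT10B*, *WNT7A* and *WNT9A*, the receptors *FZD1* and *FZD8*, the antagonist *NKD2* and the transcription factor *LEF1* rose against EV, while the ligand *WNT6*, the receptor *FZD4*, the antagonist *SFRP1*, the R-spondin receptor *LGR4* and the ubiquitin ligase *RNF43* fell. With TBX3iso2, *WNT10B*, *WNT7A*, *WNT9A*, *NKD2* and *LEF1* rose and *WNT6* and *RNF43* fell as well, and *SFRP1* rose. Between the isoforms, *FZD8* and *LRP6* were lower and *SFRP1* was higher with TBX3iso2 than with TBX3iso1. A gene was called here at a limma adjusted p under 0.05 with Benjamini-Hochberg adjustment and a fold change over 1.5, on log2(RPKM + 0.1), among genes that averaged 0.5 RPKM or more across all libraries. This scale understates the change of low genes.

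Of the 50 members, 26 passed this filter and 24 did not, 18 of them with a mean under 0.1 RPKM. The called members were 12 of the 26 with TBX3iso1 against EV (46.2%, 7 higher and 5 lower), where 21.5% of all 12805 genes tested were called (7.46% higher and 14.1% lower). They were 8 with TBX3iso2 against EV (30.8%, 6 higher and 2 lower), where 21.2% of all genes were called (8.94% higher and 12.3% lower). They were 3 between the isoforms (11.5%, 1 higher and 2 lower), where 6.29% of all genes were called (3.47% higher and 2.82% lower). The median log2 fold change of the tested members was 0.13, 0.01 and 0.06 in these comparisons, against -0.05, -0.002 and 0.05 for all genes tested. Under quantile normalization the members called with TBX3iso1 were 15, 11 higher and 4 lower, with *FZD7*, *LRP6*, *ROR1* and *ZNRF3* added and *LGR4* lost. Those with TBX3iso2 were 10, with *FZD7* and *ZNRF3* added. The calls over all genes tested also moved upward under this normalization. They went from 955 higher and 1802 lower to 1259 and 1313 with TBX3iso1. With TBX3iso2 they went from 1145 and 1575 to 1315 and 1338.

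Of the tested members, 5 passed the filter only through some of the lines: *WNT10B*, *WNT7A* and *NKD2* had a mean under 0.5 RPKM with EV, *SFRP1* with TBX3iso1 and *WNT6* with either isoform. These are 19.2% of the tested members, against 4.69% of all genes tested, and such genes could pass only by differing between lines, so the counts above describe the members and support nothing about them. The libraries of the 2 lines compared did not overlap for 24 of the 26 with TBX3iso1 against EV, 21 with TBX3iso2 against EV and 18 between the isoforms. Such separation was common in these data, at 78.4%, 74.7% and 53.5% of all genes tested. The comparisons with EV share its libraries, so their values are given side by side. Called in the same direction with both isoforms were 7 of the 26 tested members, 5 higher and 2 lower, and 13.7% of all genes tested were called so. Among the 7 are *WNT10B*, *WNT7A*, *NKD2* and *WNT6*, which passed the filter only through some lines. This count too describes the members and supports nothing about them.

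**Figure D1:**
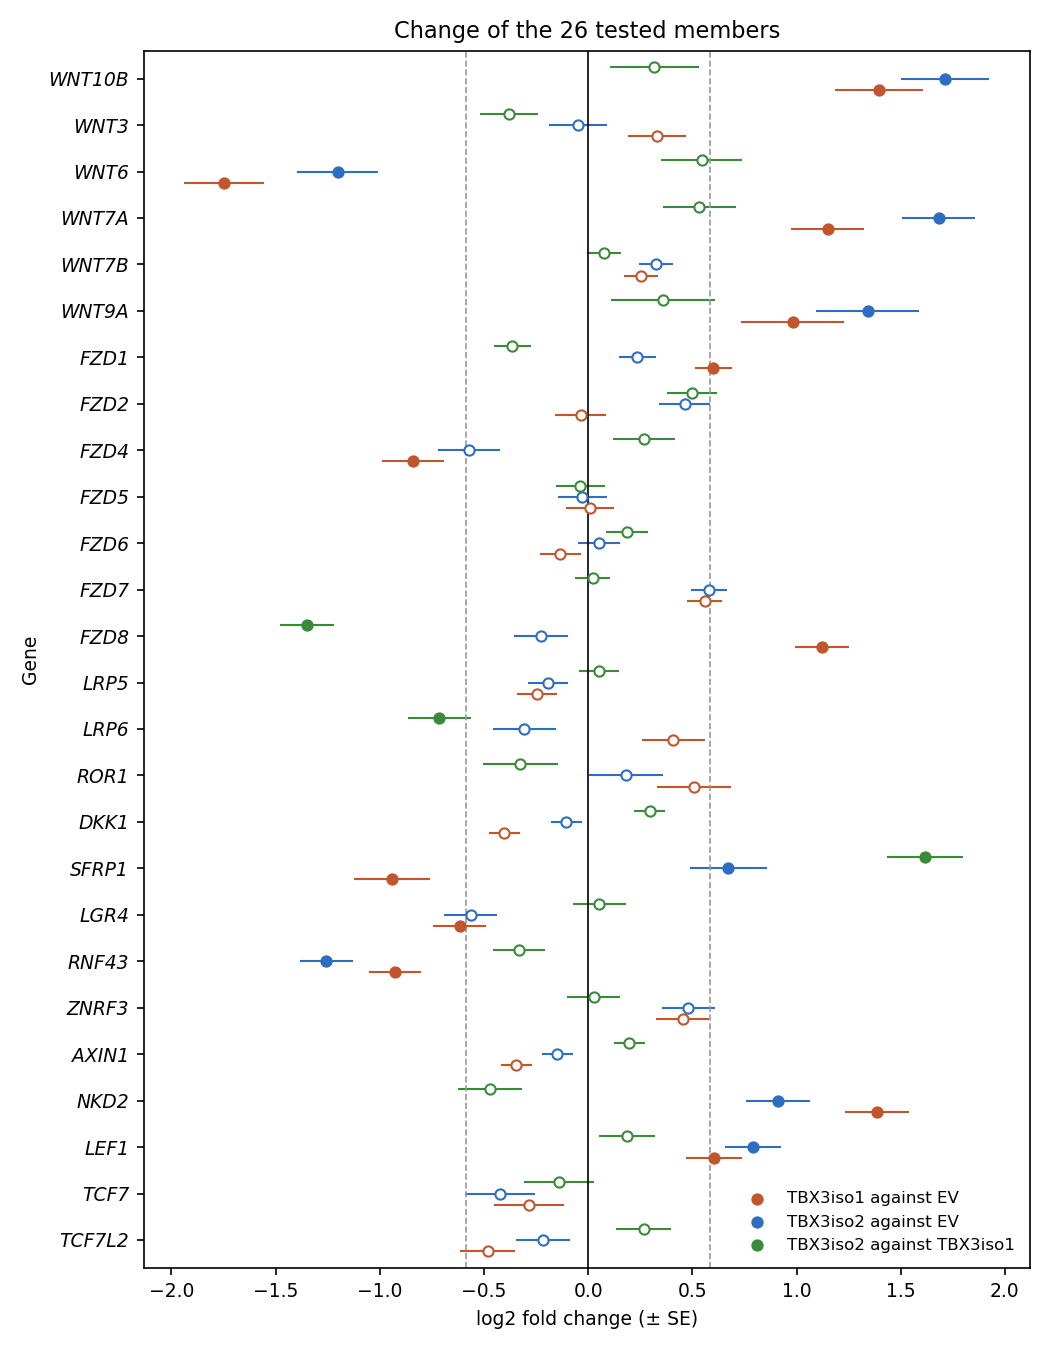
Log2 fold change of the 26 tested members on the log2(RPKM + 0.1) scale, with bars for the standard error, for TBX3iso1 against EV, TBX3iso2 against EV and TBX3iso2 against TBX3iso1. Filled points passed the criteria, open points did not, and dashed lines mark a fold of 1.5. *WNT10B*, *WNT7A* and *WNT9A* lie to the right and *WNT6* and *RNF43* to the left with both isoforms, and *SFRP1* lies on opposite sides.

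Summed over all 16, the ligands came to 14.4 ± 0.627 RPKM (SD, n = 2) with EV. The sum was 17.7 ± 1.57 RPKM with TBX3iso1 and 19.2 ± 0.756 RPKM for TBX3iso2. *WNT7B*, a ligand of the lung and of mammary tumours, made up most of this sum in every library and ranked first in each line, at 58.9% with EV, 57.4% with TBX3iso1 and 55.7% with TBX3iso2. Below it the order differed between lines: *WNT3*, *WNT6*, *WNT9A* and *WNT4* followed with EV, whereas *WNT9A* was second with either isoform and *WNT6* was seventh. *WNT7B* was at 8.64 and 8.34 RPKM with EV, 10.5 and 9.75 RPKM with TBX3iso1, and 11.0 and 10.4 RPKM with TBX3iso2. The EV libraries were the lowest, and the isoforms overlapped. Its log2 fold changes of 0.25 and 0.33 (SE 0.082, limma, Benjamini-Hochberg adjusted p = 0.0389 and 0.0141) were under the fold threshold.

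*WNT9A*, a ligand known from joint formation (GRCh37 chromosome 1, 228106357 to 228135633, minus strand), was at 1.24 and 1.09 RPKM with EV. It was at 3.04 and 1.87 RPKM with TBX3iso1 and at 3.75 and 2.55 RPKM with TBX3iso2. Both EV libraries lay below all others, and the isoforms overlapped, with replicate 1 the higher in each. On the log2 scale the fold change was 0.98 with TBX3iso1 (SE 0.249, limma, Benjamini-Hochberg adjusted p = 0.0153) and 1.34 with TBX3iso2 (adjusted p = 0.00387). The call with TBX3iso1 was lost when a library was left out, at 1.07 without EV replicate 1 (adjusted p = 0.0616), 0.89 without EV replicate 2 (adjusted p = 0.0999) and 0.64 without TBX3iso1 replicate 1 (adjusted p = 0.0555). It was also lost without the filter on low values.

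*WNT10B*, which drives mammary tumours when expressed from a transgene in mice (GRCh37 chromosome 12, 49359123 to 49365518, minus strand), was at 0.344 and 0.230 RPKM with EV. With TBX3iso1 it was at 0.858 and 0.958 RPKM and with TBX3iso2 at 0.996 and 1.34 RPKM, and the 3 lines did not overlap. The fitted log2 fold change against EV was 1.40 with TBX3iso1 (SE 0.213, limma, Benjamini-Hochberg adjusted p = 0.00166) and 1.71 with TBX3iso2 (adjusted p = 0.000622), and the means were 3.17 and 4.07 times that of EV. Its difference between the isoforms, 0.32, did not pass (adjusted p = 0.363).

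*WNT7A*, a ligand of limb and female reproductive tract patterning (GRCh37 chromosome 3, 13857755 to 13921568, minus strand), was at 0.356 and 0.351 RPKM with EV, 1.01 and 0.809 RPKM with TBX3iso1, and 1.24 and 1.49 RPKM with TBX3iso2. The libraries of the 3 lines did not overlap and were highest with TBX3iso2. Its log2 fold change was 1.15 and 1.68 against EV (SE 0.175, limma, Benjamini-Hochberg adjusted p = 0.00163 and 0.000275). The difference of 0.53 between the isoforms did not pass (adjusted p = 0.0833).

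*WNT6* (GRCh37 chromosome 2, 219724528 to 219738955, plus strand) was the ligand that fell. It was at 1.32 and 1.08 RPKM with EV, 0.274 and 0.297 RPKM with TBX3iso1, and 0.401 and 0.529 RPKM with TBX3iso2, so the EV libraries stood above all others and those of TBX3iso1 were the lowest. The log2 fold change was -1.75 with TBX3iso1 (SE 0.193, limma, Benjamini-Hochberg adjusted p = 0.000386) and -1.20 with TBX3iso2 (adjusted p = 0.00205), and the EV mean was 4.20 and 2.58 times that of the isoforms. The isoforms differed by 0.54, which did not pass (adjusted p = 0.104). With a pseudocount of 1 RPKM, the calls of *WNT10B* and *WNT7A* with TBX3iso1 and of *WNT6* with TBX3iso2 went under the fold threshold.

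*WNT4*, which acts downstream of progesterone in mammary side branching (GRCh37 chromosome 1, 22443806 to 22470462, minus strand), had a mean under the filter and was therefore not tested. It was at 0.915 and 0.830 RPKM with EV, 0.169 and 0.181 RPKM with TBX3iso1, and 0.0623 and 0.0743 RPKM with TBX3iso2. The 3 lines did not overlap, and the EV mean was 4.98 times that of TBX3iso1 and 12.8 times that of TBX3iso2. Fitted without a filter, it gave a log2 fold change of -1.82 and -2.53 against EV (SE 0.121, limma, Benjamini-Hochberg adjusted p = 0.00192 and 0.00108) and -0.71 between the isoforms (adjusted p = 0.044). *WNT11*, a ligand of cell movement in the embryo, stood on the other side among the untested, at 0.188 and 0.119 RPKM with EV, 0.725 and 0.733 RPKM with TBX3iso1, and 0.555 and 0.467 RPKM with TBX3iso2. Its lines did not overlap either, with log2 fold changes of 1.72 and 1.28 without a filter (SE 0.186, limma, Benjamini-Hochberg adjusted p = 0.00512 and 0.0104). Untested members with a mean of at least 0.2 RPKM in a line were named because lines did not overlap. Their separation and their fits without a filter therefore describe them and support nothing more.

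*WNT10A*, also untested, was at 0.333 and 0.386 RPKM with EV, above the 0.175 to 0.281 RPKM of the isoform libraries. *WNT3* was tested and not called in any comparison, with values between 1.24 and 1.83 RPKM. It was highest with TBX3iso1, and EV and TBX3iso2 overlapped. The other 7 ligands in the table had no library above 0.163 RPKM, among them *WNT5A*, *WNT5B*, *WNT1* and *WNT3A*. Without a filter, 15 of the 50 members were called with TBX3iso1, 13 with TBX3iso2 and 4 between the isoforms, where 16.4%, 16.3% and 3.68% of all genes were.

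**Figure D2:**
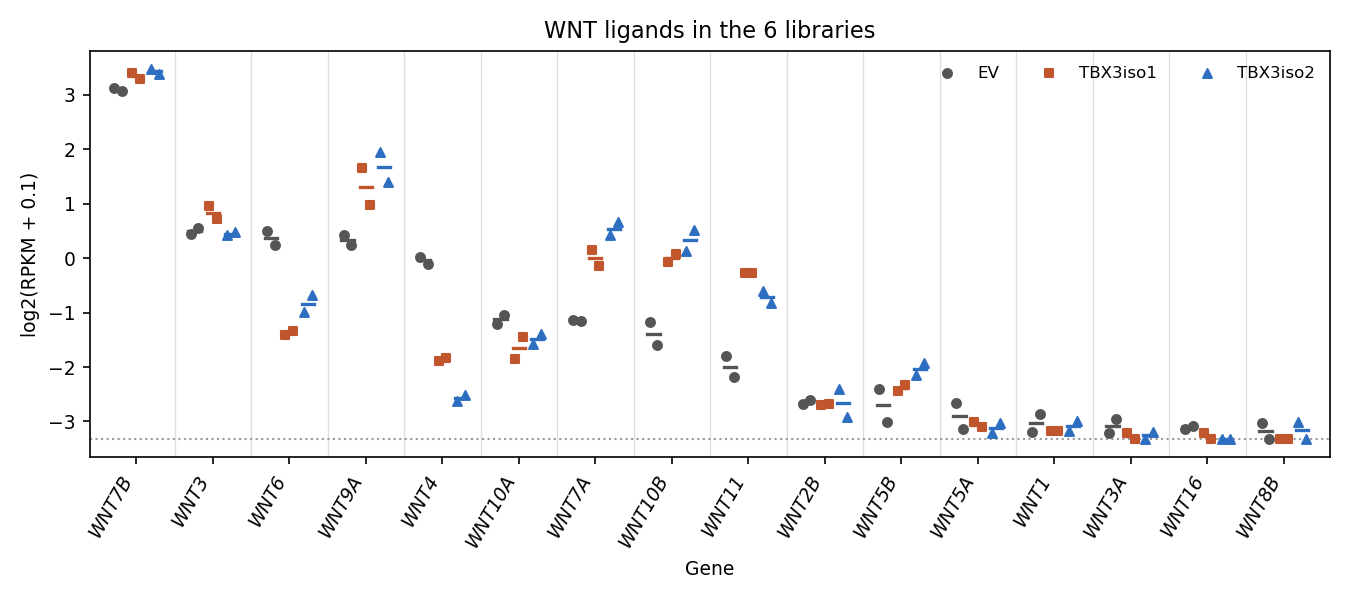
Level of the 16 WNT ligands as log2(RPKM + 0.1) in each of the 2 libraries of EV, TBX3iso1 and TBX3iso2, with short lines at the mean of the plotted values and a dotted line at 0 RPKM. Genes are ordered by their EV mean. *WNT7B* is the highest in every library, *WNT9A*, *WNT7A*, *WNT10B* and *WNT11* lie lowest with EV, and *WNT6* and *WNT4* lie highest with EV.

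Promoter sequences from RefSeq on GRCh38.p14 matched 34 of the 50 members. In the 250 bases before the start site these members had a median GC content of 71.2% and a median of 24 CpG dinucleotides, against 58.0% and 11 over all 27305 promoters. The promoters of the ligands that fell or stood lower (*WNT4*, *WNT6*) and of *WNT7A* and *WNT9A*, among those that rose, are shown because the ligands went in opposite directions while all 4 promoters are rich in CpG. *WNT10B* and *WNT11* were not among the 34 matched. They hold 40, 32, 29 and 44 CpG dinucleotides, given in capitals. All sequences run 5′ to 3′ on the strand of the gene.
WNT4 (chr1:22143098-22143347, minus strand): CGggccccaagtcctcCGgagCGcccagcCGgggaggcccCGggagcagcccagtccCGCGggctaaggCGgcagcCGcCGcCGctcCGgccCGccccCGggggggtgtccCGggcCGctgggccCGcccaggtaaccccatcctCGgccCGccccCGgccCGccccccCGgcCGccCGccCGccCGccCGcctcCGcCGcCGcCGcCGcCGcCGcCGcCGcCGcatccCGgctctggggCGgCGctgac
WNT6 (chr2:218859555-218859804, plus strand): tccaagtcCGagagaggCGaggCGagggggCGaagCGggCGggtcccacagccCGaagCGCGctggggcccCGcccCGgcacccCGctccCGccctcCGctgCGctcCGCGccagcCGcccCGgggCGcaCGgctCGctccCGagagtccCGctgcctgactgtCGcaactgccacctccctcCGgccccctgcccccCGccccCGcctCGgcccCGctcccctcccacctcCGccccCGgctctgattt
WNT7A (chr3:13880072-13880321, minus strand): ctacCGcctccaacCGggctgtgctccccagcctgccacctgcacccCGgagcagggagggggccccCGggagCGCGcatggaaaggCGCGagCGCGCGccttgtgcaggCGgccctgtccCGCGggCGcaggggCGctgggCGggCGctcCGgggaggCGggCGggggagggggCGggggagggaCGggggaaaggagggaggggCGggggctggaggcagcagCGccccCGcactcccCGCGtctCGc
WNT9A (chr1:227947933-227948182, minus strand): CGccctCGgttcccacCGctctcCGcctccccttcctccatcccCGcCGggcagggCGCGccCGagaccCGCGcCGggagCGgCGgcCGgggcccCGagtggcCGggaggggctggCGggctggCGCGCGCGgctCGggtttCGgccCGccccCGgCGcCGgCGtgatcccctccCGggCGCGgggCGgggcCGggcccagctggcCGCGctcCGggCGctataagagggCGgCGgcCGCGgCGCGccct

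In these windows, extended by 50 bases after the start, the T-box site AGGTGTGA was found on either strand in 0 of 34 member promoters and in 0.982% of all promoters. Its core GGTGTGA, which lies inside it, was in 1 (*WNT5A*) and in 3.43% of all. The TCF/LEF site CTTTGAT was in 0 and in 2.64% of all, and its form CTTTGAA was in 1 (*DKK1*) and in 4.53%. A match or its lack describes these letters in these windows and nothing more.

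FZD receptors summed to 46.6 ± 3.01 RPKM with EV, 56.7 ± 3.18 RPKM with TBX3iso1 and 53.1 ± 0.370 RPKM for TBX3iso2 (SD, n = 2). *FZD6*, a receptor of planar cell polarity, was the highest in each line, between 16.2 and 20.7 RPKM, and was not called in any comparison. *FZD1* and *FZD7* followed in every line. *FZD5* lay between 2.01 and 2.24 RPKM with all lines overlapping.

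*FZD8* (GRCh37 chromosome 10, 35927175 to 35931224, minus strand) differed most between the isoforms among the tested members called lower. It was at 3.65 and 3.00 RPKM with EV, 7.49 and 7.17 RPKM with TBX3iso1, and 2.59 and 3.06 RPKM with TBX3iso2. The libraries of TBX3iso1 stood above the other 4, and EV and TBX3iso2 overlapped. On the log2 scale the fold change was 1.12 with TBX3iso1 (SE 0.129, limma, Benjamini-Hochberg adjusted p = 0.000453), -0.23 with TBX3iso2 (adjusted p = 0.186) and -1.35 between the isoforms (adjusted p = 0.000982).

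*FZD1* (GRCh37 chromosome 7, 90893748 to 90900641, plus strand) was at 10.1 and 9.30 RPKM with EV, 15.6 and 13.9 RPKM with TBX3iso1, and 11.2 and 11.7 RPKM with TBX3iso2, with no overlap. The fitted log2 fold change of 0.60 with TBX3iso1 (SE 0.089, limma, Benjamini-Hochberg adjusted p = 0.00146) was just over the fold threshold and went under it at 0.54 without EV replicate 2 and 0.52 without TBX3iso1 replicate 1, as it did with a pseudocount of 1 RPKM. With TBX3iso2 it was 0.24 (adjusted p = 0.0626), and between the isoforms -0.36 (adjusted p = 0.0336), under the fold threshold.

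*FZD7* was just under that threshold. It was at 7.56 and 7.11 RPKM with EV, 11.3 and 10.4 RPKM with TBX3iso1, and 10.6 and 11.4 RPKM with TBX3iso2, with EV below all others. Its log2 fold changes were 0.56 and 0.58 (SE 0.0851, limma, Benjamini-Hochberg adjusted p = 0.00163 and 0.00135). They passed 1.5-fold at 0.60 and 0.62 without EV replicate 1, at 0.61 without TBX3iso1 replicate 2 and at 0.63 without TBX3iso2 replicate 1.

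*FZD4*, the receptor of norrin in retinal vessels (GRCh37 chromosome 11, 86656721 to 86666437, minus strand), was at 1.49 and 1.56 RPKM with EV, 0.871 and 0.747 RPKM with TBX3iso1, and 1.07 and 0.922 RPKM with TBX3iso2. EV stood above the isoforms. Its log2 fold change was -0.84 with TBX3iso1 (SE 0.149, limma, Benjamini-Hochberg adjusted p = 0.00326) and -0.57 with TBX3iso2 (adjusted p = 0.0167), under the fold threshold, and -0.67 without TBX3iso2 replicate 1. The call with TBX3iso1 was lost with a pseudocount of 1 RPKM. *PRSS23* overlaps it on the opposite strand and was higher with TBX3iso2, at 25.2 and 24.6 RPKM with EV against 39.1 and 40.8 RPKM. The libraries were stranded, but the sources used here do not state whether the counting used strand, so reads of this pair may not be told apart.

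*FZD2* was at 3.85 and 3.45 RPKM with EV, 3.51 and 3.60 RPKM with TBX3iso1, and 4.59 and 5.59 RPKM with TBX3iso2. The TBX3iso2 libraries were the highest, and EV and TBX3iso1 overlapped. Its values of 0.46 against EV and 0.50 between the isoforms (limma, Benjamini-Hochberg adjusted p = 0.0169 and 0.0326) were under the fold threshold and passed it, at 0.60 and 0.64, without TBX3iso2 replicate 1. *FZD3*, below the filter, lay between 0.369 and 0.450 RPKM, with EV above TBX3iso1, and *FZD9* had no library above 0.0122 RPKM.

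Among co-receptors, *LRP5* was the highest in each line, between 20.8 and 27.7 RPKM, and was not called. *LRP6* (GRCh37 chromosome 12, 12268959 to 12419978, minus strand) was at 3.25 and 2.96 RPKM with EV, 4.60 and 3.73 RPKM with TBX3iso1, and 2.79 and 2.21 RPKM with TBX3iso2. TBX3iso1 was the highest and TBX3iso2 the lowest, with no overlap. The difference between the isoforms was -0.71 (SE 0.151, limma, Benjamini-Hochberg adjusted p = 0.0205), while neither isoform passed against EV (0.41 and -0.31). This call was lost without EV replicate 1 (-0.71, adjusted p = 0.0565), without EV replicate 2 (-0.71, adjusted p = 0.0551), without TBX3iso1 replicate 1 (-0.57, adjusted p = 0.095) and without TBX3iso2 replicate 2 (-0.55, adjusted p = 0.0438, under the fold threshold). It was also lost with a pseudocount of 1 RPKM, without a filter and with only the 2 lines compared.

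*ROR1* and *ROR2* are receptor tyrosine kinases that bind WNT5A. *ROR1* lay between 3.01 and 5.27 RPKM and was not called. It reached a log2 fold change of 0.68 with TBX3iso1 without TBX3iso1 replicate 2 (limma, Benjamini-Hochberg adjusted p = 0.0354), from 0.51 (adjusted p = 0.0503). *ROR2* was under the filter, at 0.210 and 0.171 RPKM with EV, 0.304 and 0.355 RPKM with TBX3iso1, and 0.813 and 0.734 RPKM with TBX3iso2. The 3 lines did not overlap, and the mean with TBX3iso2 was 4.06 times that with EV and 2.35 times that with TBX3iso1. Without a filter its log2 fold change was 0.56 with TBX3iso1 (SE 0.149, limma, Benjamini-Hochberg adjusted p = 0.0502), 1.59 with TBX3iso2 (adjusted p = 0.00365) and 1.02 between the isoforms (adjusted p = 0.0316). *ROR2* was named because its lines did not overlap, so these values only describe it.

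Of the receptor turnover genes, *RNF43*, a ubiquitin ligase that clears FZD receptors (GRCh37 chromosome 17, 56431037 to 56494956, minus strand), fell with both isoforms. It was at 2.11 and 2.10 RPKM with EV, 1.07 and 1.05 RPKM with TBX3iso1, and 0.822 and 0.822 RPKM with TBX3iso2, and the 3 lines did not overlap. The log2 fold change was -0.93 and -1.26 (SE 0.125, limma, Benjamini-Hochberg adjusted p = 0.000961 and 0.000234). This call held with either isoform under each alternative that tested the gene. Its paralog *ZNRF3*, with the same activity, was at 2.09 and 1.82 RPKM with EV and between 2.58 and 2.95 RPKM with the isoforms, above EV. Its log2 fold changes of 0.45 and 0.48 were under the fold threshold (SE 0.128, limma, Benjamini-Hochberg adjusted p = 0.023 and 0.0181).

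*LGR4*, a receptor of R-spondins (GRCh37 chromosome 11, 27387508 to 27494337, minus strand), was at 15.2 and 13.9 RPKM with EV, 10.4 and 8.55 RPKM with TBX3iso1, and 10.8 and 8.88 RPKM with TBX3iso2. EV stood above the isoforms, which overlapped. On the log2 scale the fold change was -0.62 with TBX3iso1 (SE 0.127, limma, Benjamini-Hochberg adjusted p = 0.00618) and -0.56 with TBX3iso2 (adjusted p = 0.00888), on either side of the fold threshold. The first was lost at -0.55 without EV replicate 1 (adjusted p = 0.0601), at -0.48 without TBX3iso1 replicate 2, with a pseudocount of 1 RPKM and under both other scalings. The second passed at -0.63 without EV replicate 2 and at -0.70 without TBX3iso2 replicate 1. *LGR5*, the stem cell marker, had no library above 0.00515 RPKM.

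**Figure D3:**
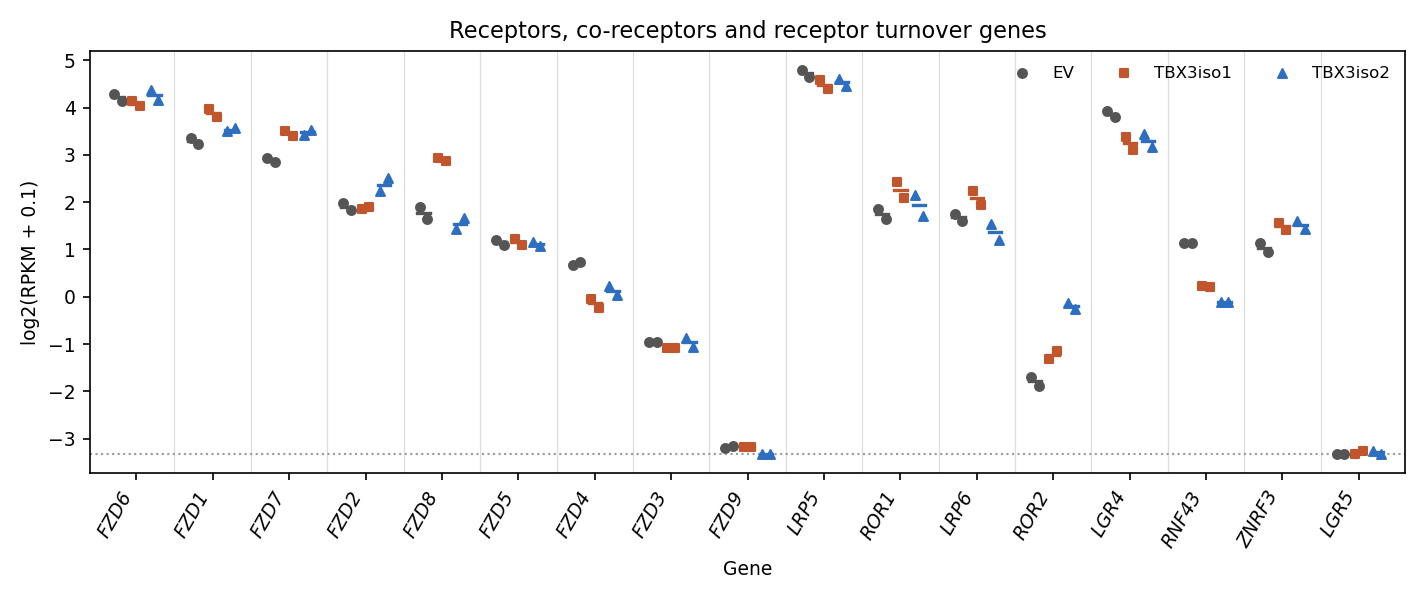
Level of the FZD receptors, co-receptors and receptor turnover genes as log2(RPKM + 0.1) in each of the 2 libraries of EV, TBX3iso1 and TBX3iso2, with short lines at the mean of the plotted values and a dotted line at 0 RPKM. Within each role genes are ordered by their EV mean. *FZD8* stands apart with TBX3iso1, *ROR2* is highest with TBX3iso2, and *FZD4*, *LGR4* and *RNF43* are highest with EV.

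Secreted antagonists were almost all *DKK1*, which made up 98.9% of their sum with EV, 99.2% with TBX3iso1 and 98.0% with TBX3iso2. *DKK1*, an inhibitor of LRP5 and LRP6 and itself a target of beta-catenin in many cells (GRCh37 chromosome 10, 54074041 to 54077802, plus strand), was at 56.7 and 58.9 RPKM with EV, 42.2 and 45.2 RPKM with TBX3iso1, and 52.4 and 55.0 RPKM with TBX3iso2. The lines did not overlap, and TBX3iso1 was the lowest. The fitted log2 fold change of -0.40 with TBX3iso1 (SE 0.0741, limma, Benjamini-Hochberg adjusted p = 0.00388) and of 0.30 between the isoforms (adjusted p = 0.0363) were under the fold threshold, and that with TBX3iso2 was -0.11 (adjusted p = 0.276). Its promoter is shown because it is the member promoter with a TCF/LEF site, CTTTGAA, in capitals, which begins 95 bases before the start.
DKK1 (chr10:52314031-52314280, plus strand): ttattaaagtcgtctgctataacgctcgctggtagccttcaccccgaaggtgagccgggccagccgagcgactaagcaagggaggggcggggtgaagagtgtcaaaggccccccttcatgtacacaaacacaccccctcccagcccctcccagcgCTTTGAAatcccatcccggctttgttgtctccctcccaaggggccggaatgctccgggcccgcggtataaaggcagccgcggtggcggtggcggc

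*SFRP1*, which binds WNT ligands and is often silenced in breast cancer, was the member that went in opposite directions with the isoforms. It was at 0.602 and 0.494 RPKM with EV, 0.241 and 0.231 RPKM with TBX3iso1, and 1.01 and 0.858 RPKM with TBX3iso2. The 3 lines did not overlap, and the mean with TBX3iso2 was 3.95 times that with TBX3iso1. Its log2 fold change was -0.94 with TBX3iso1 (SE 0.183, limma, Benjamini-Hochberg adjusted p = 0.00488), 0.67 with TBX3iso2 (adjusted p = 0.0194) and 1.61 between the isoforms (adjusted p = 0.00195). The rise with TBX3iso2 did not pass without EV replicate 1 (0.79, adjusted p = 0.0503) or without EV replicate 2 (0.55, adjusted p = 0.136). With a pseudocount of 1 RPKM both calls against EV were lost, while the difference between the isoforms held under each alternative that tested the gene.

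The other 7 antagonists of this role had no library above 0.136 RPKM. The highest of them was *DKK3*, a divergent DKK protein, at 0.00756 and 0.0288 RPKM with EV, 0.0983 and 0.0590 RPKM with TBX3iso1, and 0.130 and 0.136 RPKM with TBX3iso2. *DKK3*, named after its values were seen, was called higher with both isoforms in the fit without a filter. *DKK2*, *DKK4*, *SFRP2*, *SFRP4*, *WIF1* and *APCDD1* were each listed at 0 in at least 1 library.

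In the cytoplasm, *AXIN1*, a scaffold of the complex that degrades beta-catenin, was at 15.6 and 14.7 RPKM with EV, 12.1 and 11.7 RPKM with TBX3iso1, and 13.6 and 13.7 RPKM with TBX3iso2. The lines did not overlap, EV being the highest, and the log2 fold changes of -0.35 and -0.15 were under the fold threshold (SE 0.0735, limma, Benjamini-Hochberg adjusted p = 0.00734 and 0.138). *AXIN2*, a scaffold whose gene beta-catenin induces in most tissues, had no library above 0.110 RPKM and was not tested. *NKD1* had none above 0.0463 RPKM.

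*NKD2*, which binds dishevelled (GRCh37 chromosome 5, 1008917 to 1039058, plus strand), rose with both isoforms. It was at 0.371 and 0.360 RPKM with EV, 1.08 and 1.16 RPKM with TBX3iso1, and 0.811 and 0.743 RPKM with TBX3iso2. The lines did not overlap, and TBX3iso1 was the highest. The log2 fold change was 1.39 and 0.91 (SE 0.154, limma, Benjamini-Hochberg adjusted p = 0.000389 and 0.00249), and the -0.47 between the isoforms did not pass (adjusted p = 0.0813). With a pseudocount of 1 RPKM the call with TBX3iso2 was lost.

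Of the TCF/LEF factors, *TCF7L2* was the highest, at 4.31 and 4.14 RPKM with EV, 3.30 and 2.72 RPKM with TBX3iso1, and 3.95 and 3.33 RPKM with TBX3iso2. EV was above all others. On the log2 scale the fold change of -0.48 with TBX3iso1 (SE 0.131, limma, Benjamini-Hochberg adjusted p = 0.0201) was under the fold threshold and reached -0.62 without TBX3iso1 replicate 1. *TCF7* lay between 0.499 and 0.808 RPKM and was not called, and *SKP1* overlaps it on the opposite strand.

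*LEF1*, a factor of mammary bud formation (GRCh37 chromosome 4, 108968701 to 109090112, minus strand), was at 0.887 and 0.812 RPKM with EV, 1.33 and 1.35 RPKM with TBX3iso1, and 1.63 and 1.46 RPKM with TBX3iso2, with no overlap. The fitted log2 fold change was 0.60 with TBX3iso1 (SE 0.134, limma, Benjamini-Hochberg adjusted p = 0.00879) and 0.79 with TBX3iso2 (adjusted p = 0.00257). The first was 0.55 without EV replicate 2 (adjusted p = 0.0735), and with a pseudocount of 1 RPKM neither passed. *TCF7L1*, mainly a repressor and below the filter, was at 0.0697 and 0.0786 RPKM with EV, 0.437 and 0.276 RPKM with TBX3iso1, and 0.300 and 0.219 RPKM with TBX3iso2. EV was below all others and the isoforms overlapped, with log2 fold changes of 1.37 and 1.04 without a filter (SE 0.223, limma, Benjamini-Hochberg adjusted p = 0.0141 and 0.0288). *TCF7L1* was named for this separation, so these values only describe it.

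**Figure D4:**
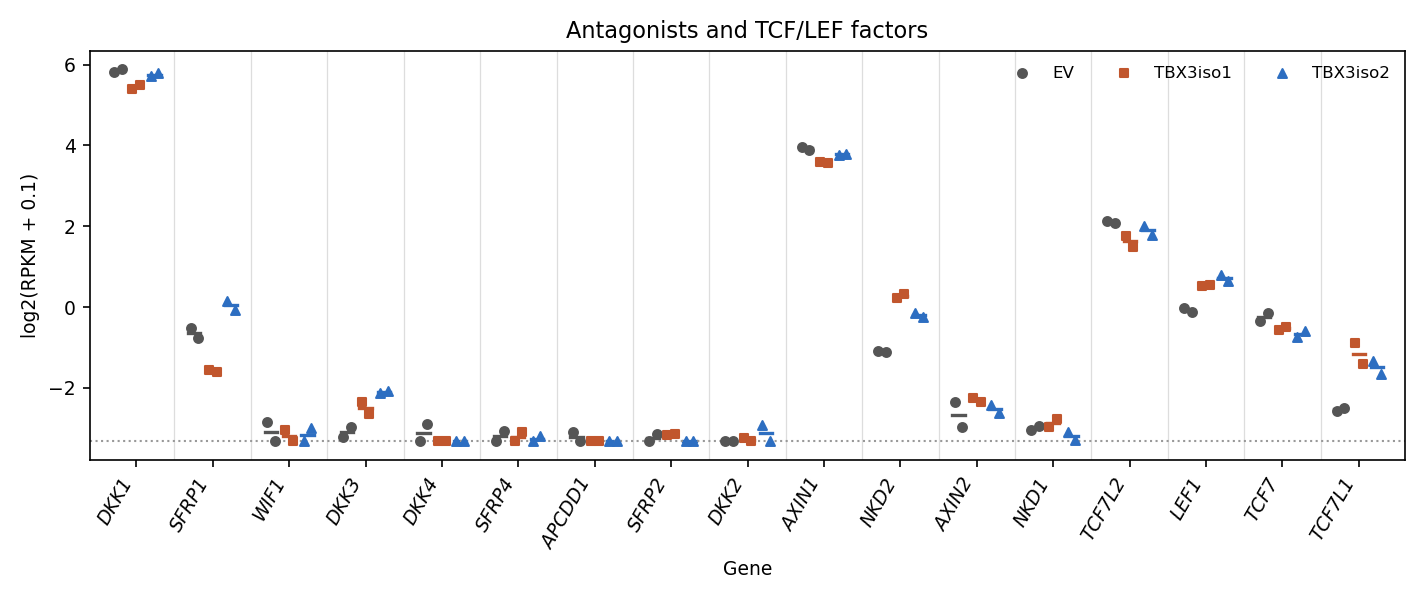
Level of the secreted or membrane antagonists, cytoplasmic antagonists and TCF/LEF factors as log2(RPKM + 0.1) in each of the 2 libraries of EV, TBX3iso1 and TBX3iso2, with short lines at the mean of the plotted values and a dotted line at 0 RPKM. Within each role genes are ordered by their EV mean. *DKK1* is by far the highest antagonist, *SFRP1* is lowest with TBX3iso1 and highest with TBX3iso2, and *NKD2*, *LEF1* and *TCF7L1* are lowest with EV.

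Other genes of the pathway were read from a list of 78 genes in the table, of which 56 were tested. With TBX3iso1 3 were higher and 6 lower (16.1%), with TBX3iso2 3 were higher and 9 lower (21.4%), and between the isoforms 4 were higher and 1 lower (8.93%). Over all genes tested the called shares were 21.5%, 21.2% and 6.29%. The ranges with 1 library left out are given further below. Under quantile normalization the split was 4 higher against 4 lower with TBX3iso1 and 4 against 2 between the isoforms. Over all genes tested it was then 1259 against 1313 and 351 against 435. The median log2 fold change was -0.28, -0.14 and 0.09, beside -0.05, -0.002 and 0.05 over all genes tested. *CTNNB1*, which encodes beta-catenin, lay between 68.7 and 79.1 RPKM and was not called. Means under 0.5 RPKM were seen for *APCDD1L* and *TSPAN12* with EV, *FRAT1* with either isoform and *TLE4* with TBX3iso1. Such genes could pass the filter only by differing between lines, so the counts describe this list and support nothing about it.

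Outside the cell, *APCDD1L*, a paralog of the antagonist APCDD1, was at 0.440 and 0.514 RPKM with EV, 2.46 and 2.18 RPKM with TBX3iso1, and 5.10 and 4.29 RPKM with TBX3iso2, with no overlap. Its log2 fold change was 2.07 and 3.05 against EV (SE 0.143, limma, Benjamini-Hochberg adjusted p = 4.66e-05 and 1e-05). *GPC4*, a glypican that binds WNT ligands, rose by 1.34 and 1.57, and *TSPAN12*, a partner of FZD4, rose by 0.91 with TBX3iso1. *PORCN*, the enzyme that attaches the lipid to WNT ligands, was at 7.32 and 7.59 RPKM with EV, 8.45 and 8.54 RPKM with TBX3iso1, and 4.14 and 4.68 RPKM with TBX3iso2, and was called lower with TBX3iso2 than with TBX3iso1 (-0.93) and than with EV (-0.75).

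*CELSR2*, a cadherin of planar cell polarity, was at 7.64 and 6.69 RPKM with EV and between 1.64 and 2.51 RPKM with the isoforms, well apart from EV (log2 fold change -1.70 and -1.77, SE 0.211). *PRICKLE1*, of the same branch, fell by 0.63 with TBX3iso1 and by 0.96 with TBX3iso2. Its call with TBX3iso1 was lost without TBX3iso1 replicate 2 (-0.49), with a pseudocount of 1 RPKM (-0.55) and under median-ratio scaling (-0.57) and quantile normalization (-0.52). *PRICKLE3* was called 0.80 higher with TBX3iso2 than with TBX3iso1 and 0.71 higher than with EV. *FRAT1* and *FRAT2*, which bind the kinase GSK3, had log2 fold changes of -1.20 and -1.40 for the first and -0.58 and -0.90 for the second, of which the -0.58 was not called. *CXXC5*, which binds dishevelled, fell by 1.25 with TBX3iso1 and was called higher, by 0.82, with TBX3iso2 than with TBX3iso1. *TLE4*, a corepressor, was called 0.88 higher with TBX3iso2 than with TBX3iso1, a call lost at 0.88 without EV replicate 2, 0.75 without TBX3iso1 replicate 2 and 0.76 without TBX3iso2 replicate 1.

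Of 29 genes in the table from a list of beta-catenin targets, 19 were tested. With TBX3iso1 5 were higher and 2 lower (36.8%), with TBX3iso2 4 were higher and 5 lower (47.4%), and between the isoforms 1 was higher and 1 lower (10.5%), beside 21.5%, 21.2% and 6.29% of all genes tested. The median log2 fold change of the list was 0.19 with TBX3iso1, 0.02 with TBX3iso2 and -0.05 between the isoforms. Under quantile normalization the split was 3 higher against 2 lower with TBX3iso1 and 2 against 4 with TBX3iso2. Over all genes tested it was then 1259 against 1313 and 1315 against 1338. Members of the list thus moved both ways. Many of them have other regulators, and what moved them was not tested. *PLAUR*, the urokinase receptor, was at 21.2 and 20.6 RPKM with EV, 48.5 and 54.4 RPKM with TBX3iso1, and 41.7 and 44.4 RPKM with TBX3iso2, a rise of 1.29 and 1.04. *FOSL1*, an AP-1 subunit, went from 162.7 and 157.9 RPKM to 242.2 and 242.1 RPKM with TBX3iso1 and to 393.1 and 371 RPKM with TBX3iso2. Its rise with TBX3iso1 went under the fold threshold without EV replicate 2, at 0.57, and under quantile normalization.

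*CCND1*, which encodes cyclin D1, and *JUN* each rose by 0.65 with TBX3iso1, the first of them under the fold threshold with quantile normalization (0.58). The call of *JUN* with TBX3iso1 was lost without moderation of the variances (adjusted p = 0.0657, linear model with Benjamini-Hochberg adjustment). Both genes also rose by 0.60 with TBX3iso2. These calls with TBX3iso2 were lost without EV replicate 2 (0.55 for *CCND1* and 0.57 for *JUN*), without TBX3iso2 replicate 1 (0.57 and 0.43) and under quantile normalization (0.51 and 0.52). That of *JUN* was also lost with a pseudocount of 1 RPKM (0.58) and without moderation of the variances (adjusted p = 0.0726, linear model with Benjamini-Hochberg adjustment). *EPHB3*, a receptor of ephrin-B ligands, was at 5.61 and 4.99 RPKM with EV, 2.88 and 3.09 RPKM with TBX3iso1, and 1.23 and 1.55 RPKM with TBX3iso2, and fell in all 3 comparisons (-0.81, -1.86 and -1.05). *SOX4* fell by 1.04 and 1.02, and *EPHB2* and *VEGFA* fell by 0.89 and 0.75 with TBX3iso2. *MYC* lay between 71.7 and 80.1 RPKM and was not called.

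**Figure D5:**
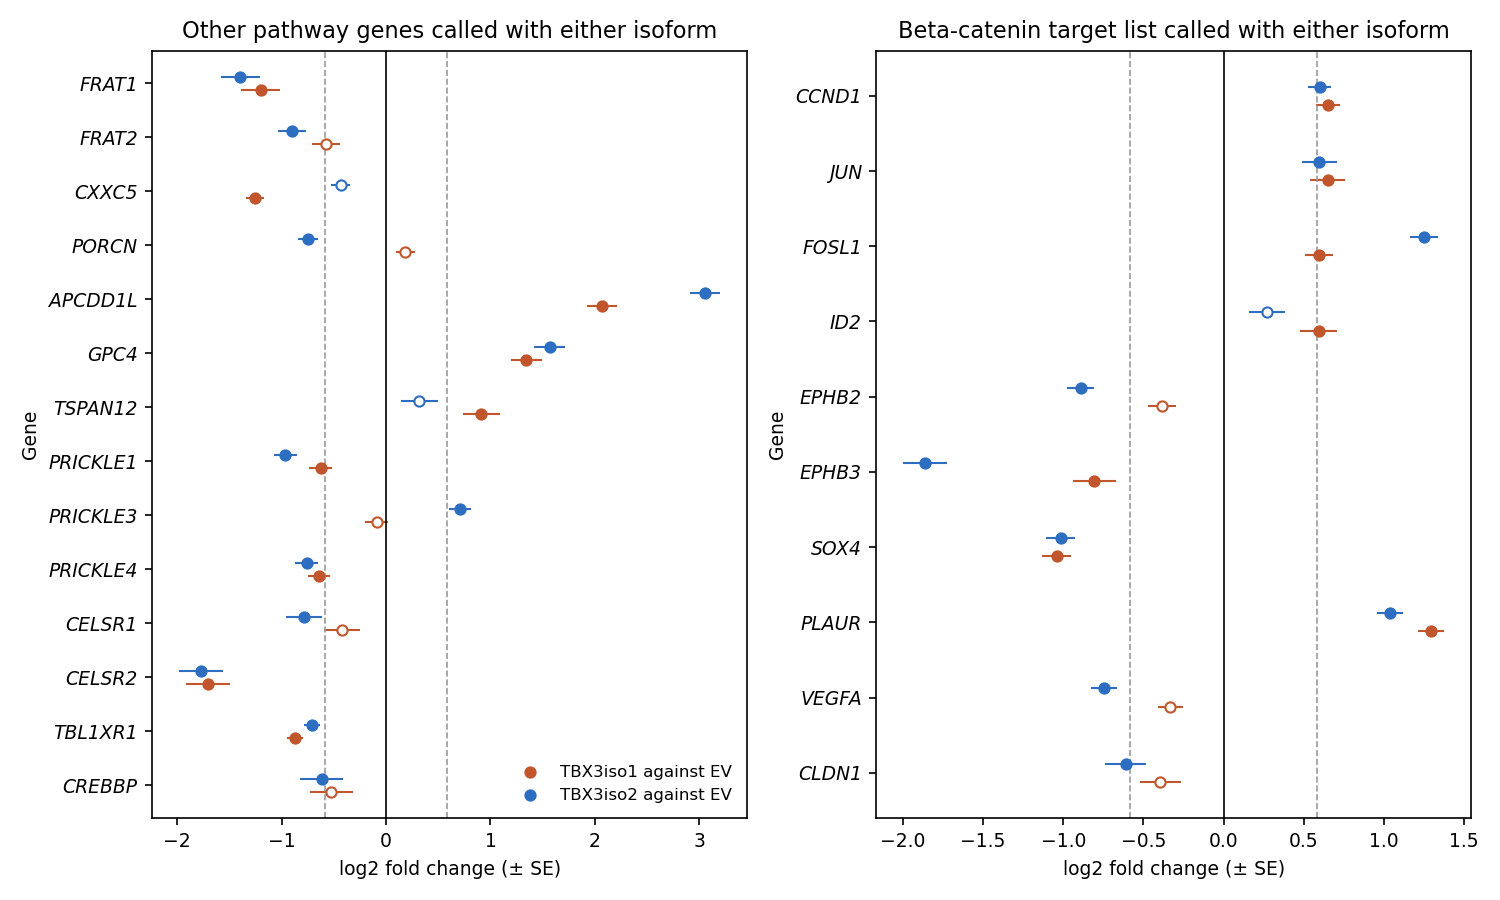
Log2 fold change against EV on the log2(RPKM + 0.1) scale, with bars for the standard error, of the other pathway genes and the beta-catenin target list genes called with at least 1 isoform. Filled points passed the criteria, open points did not, and dashed lines mark a fold of 1.5. *APCDD1L* lies farthest to the right, at 2.07 and 3.05, and *EPHB3* farthest to the left, at -1.86 with TBX3iso2.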

How the data were processed

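The authors prepared stranded mRNA libraries from 21NT cells, aligned paired-end reads to hg19 with TopHat and computed RPKM in Partek, and the deposited table holds these RPKM values on the linear scale. Versions, gene annotation and use of strand in counting are not given in the sources used here. Whole reads could not be recovered from the values (1.3% of 3771 low genes, tolerance 0.02), so no count test was run and the depth behind each gene is unknown. Groups came from the sample labels.

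Values were taken as log2(RPKM + 0.1). Genes that averaged 0.5 RPKM or more entered 3 comparisons with limma 3.58.1 in R 4.3.3, with 1 mean per line over all 6 libraries, an empirical Bayes trend and Benjamini-Hochberg adjustment over all genes tested. The model was tested on simulated data. Alternatives were other pseudocounts, filters and scalings, other models, a replicate block, and each library left out.

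Named are all members called in at least 1 comparison, the highest uncalled members of each role, untested members with a mean of at least 0.2 RPKM in a line that do not overlap, and the 6 called genes with the largest change from each other list. The members and lists were chosen with earlier results of these data known. Gene positions are from GENCODE v44lift37 on GRCh37, the build hg19.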

Additional observations from a re-analysis of the deposited data

How the results depend on the processing

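Of the 23 member calls, 8 were kept under every alternative that tested them, 15 were lost under at least 1 of 16 alternatives, and 0 changed sign. The 8 include *WNT6* and *NKD2* with TBX3iso1, *WNT10B* and *WNT7A* with TBX3iso2, and *SFRP1* between the isoforms. These genes passed the filter only through some lines, and the filter at a mean of 2 RPKM did not test them. With a pseudocount of 1 RPKM, called members came to 5 with TBX3iso1 and 4 with TBX3iso2, and other pathway genes to 5 with TBX3iso1. With a filter at a mean of 2 RPKM they came to 4 and 1 of 16 members, fewer genes being tested, and without a filter to 13 of 50 with TBX3iso2. Calls over all genes fell too. The main fit gave 955 higher and 1802 lower with TBX3iso1 and 1145 and 1575 with TBX3iso2, of 12805 tested. The pseudocount of 1 RPKM gave 654 and 1158, and 784 and 1086. The filter at 2 RPKM gave 689 and 1158, and 868 and 1026, of 10313 tested. Without moderation, calls between the isoforms were 1 for members, 2 for other pathway genes and 1 for the target list. Over all genes they were 103 higher and 96 lower, where the main fit gave 444 and 361. The member calls lost without moderation were *WNT9A* with either isoform, *SFRP1* with TBX3iso2, *LGR4* with TBX3iso1, and *FZD8* and *LRP6* between the isoforms. The cause of these changes was not tested, apart from the genes tested. With 1 library left out, called members ranged from 10 to 13, 8 to 11 and 2 to 3, other pathway genes from 7 to 15, 9 to 14 and 4 to 6, and target list genes from 6 to 8, 6 to 10 and 2 to 3. Where this leaves 1 library in a line, that library is assumed to vary like the others.

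Quantile normalization moved the share of higher genes among all calls from 34.6% to 49.0% with TBX3iso1 and from 55.2% to 44.7% between the isoforms, and median-ratio scaling moved the latter to 43.5%. The labels tie replicates of different lines only by a number. Same-numbered libraries deviated with r = 0.22, 0.11 and, between the isoforms, 0.50, so part of their spread may be shared. With the replicate block the called members were again 12, 8 and 3. Small uncalled values turned sign. Under median-ratio scaling and quantile normalization these were *FZD2* with TBX3iso1 (0.017 and 0.152) and, between the isoforms, *FZD7* (-0.034 and -0.05), *LRP5* (-0.003 and -0.002), *LGR4* (-0.001 and -0.009) and *ZNRF3* (-0.027 and -0.03). Under quantile normalization alone they were *WNT3* (0.122) and *FZD5* (0.137) with TBX3iso2. With 1 library left out, *FZD2* ranged from -0.113 to 0.042 and *FZD5* from -0.059 to 0.077 with TBX3iso1. With TBX3iso2, *WNT3* ranged from -0.1 to 0.002, *FZD5* from -0.079 to 0.023, *FZD6* from -0.056 to 0.161 and *ROR1* from -0.04 to 0.406. Between the isoforms, *FZD5* ranged from -0.105 to 0.031, *FZD7* from -0.035 to 0.076, *LRP5* from -0.045 to 0.149, *LGR4* from -0.084 to 0.191 and *ZNRF3* from -0.066 to 0.12. With 2 libraries per line and an unknown depth per gene, the precision of low genes is limited.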

Other observations

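Several WNT genes lie side by side in the genome. *WNT1* and *WNT10B* are 6586 bases apart on chromosome 12, and *WNT1* had no library above 0.0377 RPKM while *WNT10B* reached 1.34 RPKM with TBX3iso2. *WNT6* and *WNT10A* are 6618 bases apart on chromosome 2, on the same strand, and both stood highest with EV, although *WNT10A* did not pass without a filter (log2 fold change -0.53 with TBX3iso1, limma, Benjamini-Hochberg adjusted p = 0.105). *WNT3A* and *WNT9A* are 59065 bases apart on chromosome 1, and *WNT3A* had no library above 0.0289 RPKM.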
